A study of Drosophila melanogaster with 72 samples.

Results

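Total RNA of 15 d old whole female flies labelled Thor[2];Lsp2[A10] was compared with total RNA of flies of the same age labelled Lsp2[A10]. The comparison rests on 3 libraries a side, 6 of the 72 libraries of the series, which were chosen by genotype, age and RNA fraction in the labels. The 3 libraries labelled Thor[2];Lsp2[A10] are called Thor[2] libraries below, and the 3 that carry the label Lsp2[A10] without Thor[2] are called Lsp2[A10] libraries. Both groups share the Lsp2[A10] label, the age, the sex and the use of the whole body, and Thor[2] is the label in which they differ. The labels do not say how the Lsp2[A10] and Thor[2] chromosomes were made or outcrossed, and what they list as batch is again genotype with fraction. Batch, genetic background and the Thor[2] label therefore cannot be told apart. The same label change on another allele, in libraries labelled Thor[2];Lsp2[B14] and Lsp2[B14], and the polysome RNA of the Lsp2[A10] pair were used to show where the comparison differs. Total RNA libraries of the other allele were also fitted together with the 6. They therefore enter the choice of genes tested and the estimate of spread behind the p-values.

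Thor encodes the fly 4E-BP, which binds the cap-binding factor eIF4E and keeps it from recruiting ribosomes to an mRNA. The kinase complex mTORC1 phosphorylates Thor and so releases eIF4E when nutrients and insulin signalling are high, while starvation and stress raise Thor through the transcription factor foxo. Thor[2] is known as a loss-of-function allele. Lsp2 encodes a larval serum protein, a hexamerin that the larval fat body secretes and the pupa consumes. Ribosomal protein mRNAs begin with a terminal oligopyrimidine tract, and their translation is the textbook output of mTORC1 and 4E-BP.

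As deposited, the count totals were 21.3 to 27.7 M in the Thor[2] libraries and 23.6 to 24.4 M in the Lsp2[A10] libraries (M, mega). Replicates of a group ranked genes alike (Spearman correlation 0.992 to 0.996 in both groups), while a Thor[2] and an Lsp2[A10] library correlated at 0.918 to 0.932. Thor[2] libraries of the 2 Lsp2 alleles correlated at 0.975 to 0.986, closer than libraries of the same Lsp2 allele with and without the Thor[2] label. No replicate repeated another within counting noise, with a chi-square of at least 10.8 per degree of freedom. Levels below are in CPM, the count of a gene scaled by its library's total in the same way for every library, and are not corrected for gene length. Log2 changes are Thor[2];Lsp2[A10] over Lsp2[A10] from edgeR's quasi-likelihood fit with TMM scaling, given ± their standard error, and a gene is called at a Benjamini-Hochberg adjusted p under 0.05 over the 10354 genes tested. TMM moved log2 changes up by about 0.2 relative to ratios of CPM, since the median over all genes was 0.04 with TMM and -0.16 with library totals. The labels number the replicates without saying whether they come from separate cultures, so p-values measure the spread between these libraries, which may be technical. With 3 against 3 a single value tested by exact permutation could not go below p = 0.1.

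Most genes differed. Of the 10354 genes tested, 6915 (66.8%) were called, 3566 of them higher (34.4%) and 3349 lower (32.3%) in the Thor[2] libraries. With a log2 change of at least 1 as well, 1489 genes were higher (14.4%) and 1002 lower (9.68%). Over all genes tested the median size of a change was 0.602 on the log2 scale, and 1519 called genes changed by less than 0.5. The 3 values of each group did not overlap in 6252 of the called genes. Over all genes tested 28.7% were higher and 43.0% lower in CPM without overlap. With library totals in place of TMM the split was 2785 higher and 4209 lower. RNA came from whole flies, so fewer cells of a type and less RNA per cell cannot be told apart. A call of a single gene or of part of a list is to be read against these shares.

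The sign of the change followed the length of the gene. Among genes with the shortest exons (162 to 1103 bases, merged over transcripts) 73.2% were called higher and 2.7% lower, with a median log2 change of 0.88. Among the genes with the longest exons (4043 to 71820 bases) 2.9% were called higher and 69.8% lower, with a median of -0.79. The 3 bins between had medians of 0.41, 0.01 and -0.33. Within single libraries, the median deviation from the mean of the 12 total RNA libraries was larger in the shortest than in the longest bin by 0.87, 0.92 and 0.59 log2 units in the Thor[2] libraries and by -0.89, -0.84 and -0.87 in the Lsp2[A10] libraries. The 2 groups did not overlap in this measure. The libraries of the other allele gave 1.42, 1.13 and 0.54 with Thor[2], against -0.66, -1.16 and -1.02 with Lsp2[B14] alone. In polysome RNA of the Lsp2[A10] pair the medians of the 5 bins ran only from 0.17 in the shortest to -0.12 in the fourth bin. RNA integrity, fragment size and the transcripts in use were not measured here, and their part in this dependence was not tested. Lists below are given with their median exon length (all genes tested, 2040 bases) and with their calls after scaling that removes the length trend of each library. Under that scaling, which was added after the trend was seen, 2856 of 10345 genes tested were higher and 3259 lower.

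**Figure D1:**
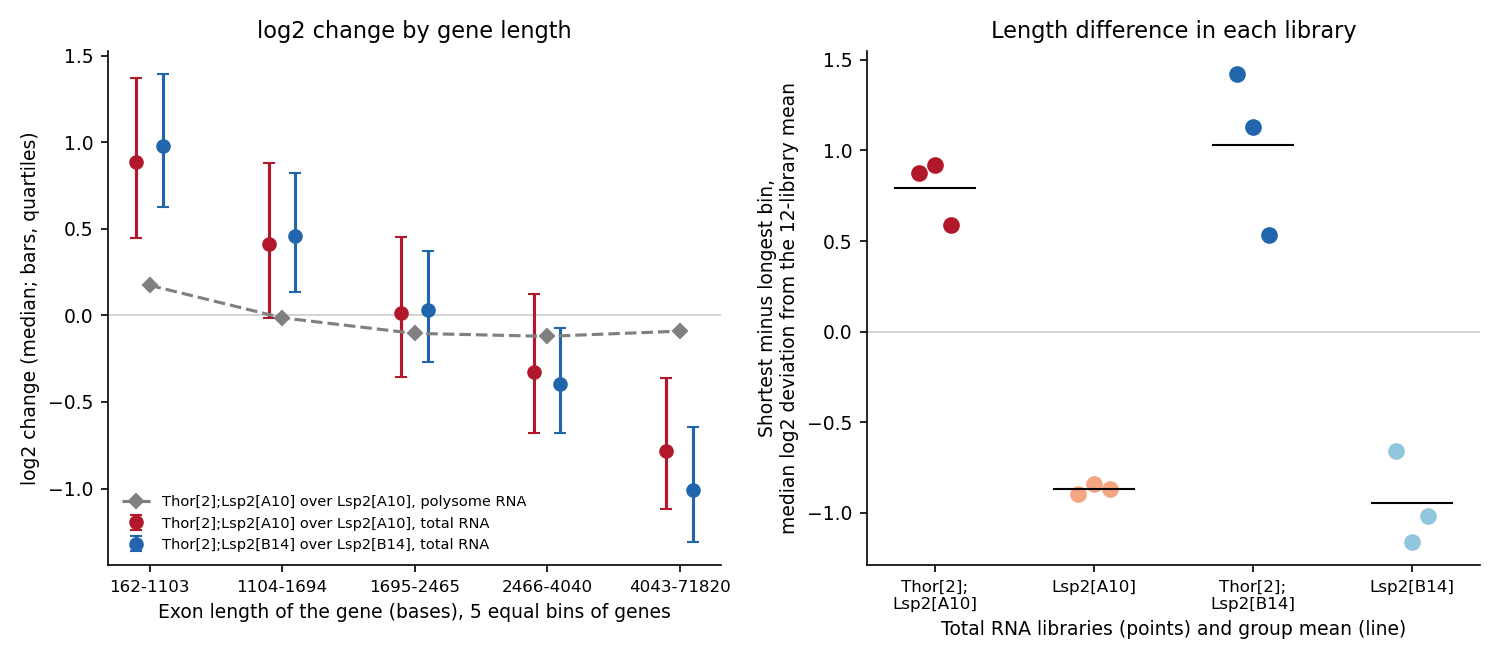
Left, median log2 change of genes in 5 equal bins of exon length, with bars from the lower to the upper quartile, for Thor[2];Lsp2[A10] over Lsp2[A10] (red), Thor[2];Lsp2[B14] over Lsp2[B14] (blue) and polysome RNA of the first pair (grey, medians only). Right, the shortest minus the longest bin in each total RNA library (points) with group means (lines). Medians fall from 0.88 to -0.79 with length in the Lsp2[A10] pair, and every Thor[2] library lies above every library without Thor[2].

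Thor RNA was not lower in the libraries labelled Thor[2]. Thor (FBgn0261560), on 2L at 3478434 to 3479612 of BDGP6.54 in 2 exons, had 265, 253 and 364 CPM in the Thor[2] libraries, against 291, 221 and 246 CPM in the Lsp2[A10] libraries. The groups overlapped, with the highest value in Thor[2] replicate 3, and the log2 change was 0.42 ± 0.14 (adjusted p 0.0166). It was 0.22 (adjusted p 0.198) with library totals, 0.24 (adjusted p 0.111) without Thor[2] replicate 3, 0.33 (adjusted p 0.0763) without Lsp2[A10] replicate 2 and -0.45 (adjusted p 0.0624) with length-dependent scaling. The deposited counts are per gene, so they do not show whether part of the transcript is missing. Polysome RNA gave -0.54 (adjusted p 0.0133). Lsp2 stood at 2.91, 0.172 and 0.108 CPM in the Thor[2] libraries, against 0.780, 0.551 and 2.45 CPM in the Lsp2[A10] libraries, overlapping and near the limit of counting (-0.13 ± 1.58, adjusted p 0.946). Rheb, the GTPase that activates mTORC1, stood at 124, 117 and 129.6 CPM in the Thor[2] libraries, against 109, 124 and 115 CPM in the Lsp2[A10] libraries, again overlapping (0.29 ± 0.09, adjusted p 0.0123). Its change was 0.09 (adjusted p 0.395) with library totals and 0.24 (adjusted p 0.0573) without Lsp2[A10] replicate 1. With length-dependent scaling it was called lower (-0.20, adjusted p 0.0369).

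The largest rises included 4 lysozyme genes. Lysozymes cut bacterial cell walls, and these sit in a cluster on 3L and are expressed in the gut. LysS had 69.9, 98.4 and 63.0 CPM in the Thor[2] libraries, against 0.862, 0.424 and 0.695 CPM in the Lsp2[A10] libraries, a log2 change of 7.05 ± 0.76 (adjusted p 1.5e-05). LysB stood at 1842, 1906 and 1897 CPM in the Thor[2] libraries, against 24.2, 24.4 and 11.8 CPM in the Lsp2[A10] libraries (6.75 ± 0.93, adjusted p 8.54e-05). No Thor[2] library came near any Lsp2[A10] library for either gene. LysD (6.78 ± 1.20) and LysE (6.18 ± 0.70) moved by a like amount, and LysP, at 266, 338 and 259.9 CPM in the Thor[2] libraries, against 54.5, 57.1 and 62.2 CPM in the Lsp2[A10] libraries, by less (2.51 ± 0.21). LysX went the other way, with 0.516, 0.386 and 0.288 CPM in the Thor[2] libraries, against 1.44, 1.31 and 1.51 CPM in the Lsp2[A10] libraries (-1.66 ± 0.51, adjusted p 0.0109), and was named after its values were seen. With length-dependent scaling 5 lysozymes were likewise higher and 1 lower (572 bases). The 6 lysozymes tested summed to 5237, 5406 and 5427 CPM in the Thor[2] libraries, against 122.7, 126.1 and 95.56 CPM in the Lsp2[A10] libraries. LysB, LysD and LysE are near-identical copies, so how the rise divides among them is uncertain.

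Other large rises were outside named pathways or in metabolism and detoxification. Cyp4d21, a cytochrome P450, stood at 9.80, 9.82 and 8.72 CPM in the Thor[2] libraries, against 0.205, 0.0424 and 0.327 CPM in the Lsp2[A10] libraries (5.78 ± 0.37, adjusted p 1.79e-07). CG9150 had 4.50, 4.89 and 5.59 CPM in the Thor[2] libraries, against 0.0821, 0.0424 and 0 CPM in the Lsp2[A10] libraries (6.95 ± 0.50). CG13155 stood at 21.0, 21.2 and 24.5 CPM in the Thor[2] libraries, against 0.657, 0.466 and 0.286 CPM in the Lsp2[A10] libraries (5.75 ± 0.37), CG31809 rose by 5.23 ± 0.45 and CG30054 by 5.20 ± 0.36. Each of these was higher in 3 of 3 Thor[2] libraries than in any Lsp2[A10] library. CG2962, TwdlF and CG15731 also ranked among the largest rises, but on 2 libraries each. CG2962 had 0.0469, 11.2 and 11.7 CPM in the Thor[2] libraries, against 0, 0 and 0 CPM in the Lsp2[A10] libraries, and its 3 Thor[2] libraries together were at least 184-fold above the 3 counts set as floor over the Lsp2[A10] group. TwdlF stood at 0.0938, 6.35 and 12.2 CPM in the Thor[2] libraries, against 0, 0 and 0.0409 CPM in the Lsp2[A10] libraries, with replicate 1 of the Thor[2] libraries again close to the Lsp2[A10] libraries.

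CG5687 had the largest fall. It had 0 counts in all 3 Thor[2] libraries and 830, 667 and 600 counts in the Lsp2[A10] libraries, at least 699-fold lower against a floor of 3 counts over the group (adjusted p 8.08e-08). It was likewise at 0 counts in the 3 libraries labelled Thor[2];Lsp2[B14], against 652, 852 and 984 in Lsp2[B14]. CG5687 lies on 3L at 1933633 to 1939103, on another chromosome than Thor. CG4650, a gene on 2L, had 0.469, 0.214 and 0.469 CPM in the Thor[2] libraries, against 12.7, 19.5 and 16.1 CPM in the Lsp2[A10] libraries (-5.17 ± 0.27). CG13138 had 0, 0.172 and 0.108 CPM in the Thor[2] libraries, against 2.63, 4.58 and 5.93 CPM in the Lsp2[A10] libraries (-5.25 ± 0.60). FDY, a Y-linked gene derived from vig2, stood at 0.234, 0.300 and 0.216 CPM in the Thor[2] libraries, against 14.1, 8.52 and 11.1 CPM in the Lsp2[A10] libraries (-5.27 ± 0.61), and reads of its autosomal parent gene may be counted with it. Tsp42Ea, a tetraspanin, stood at 0.703, 0.772 and 1.04 CPM in the Thor[2] libraries, against 18.4, 11.1 and 11.9 CPM in the Lsp2[A10] libraries (-3.81 ± 0.24). Adh, alcohol dehydrogenase, had 0.610, 1.11 and 0.649 CPM in the Thor[2] libraries, against 9.28, 9.24 and 10.3 CPM in the Lsp2[A10] libraries (-3.40 ± 0.24). All of these were lower in 3 of 3 Thor[2] libraries. Cyp12d1-p (-3.58 ± 0.31), Pask, a nutrient-responsive protein kinase (-3.13 ± 0.36), and CG13728 (-3.17 ± 0.65) complete the list beside Hsp70 genes and NimB2, described below.

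Few genes were on in one group and off in the other. With at least 10 counts in every library of one group and at most 3 in every library of the other, 7 genes were found in the Thor[2] libraries alone and 4 in the Lsp2[A10] libraries alone. Of the 7, CG9150 met the same limits in the Lsp2[B14] pair. CG42681, chosen here after its values were seen, had 43, 38 and 37 counts in the Thor[2] libraries and 0 in each Lsp2[A10] library. It had 34, 21 and 3 counts in Thor[2];Lsp2[B14], against 0, 1 and 2 in Lsp2[B14]. CG13962 had 46, 20 and 15, against 5, 2 and 4. CG13713, CG15876, CG18269 and scw had only 10 to 13 counts in Thor[2];Lsp2[A10] replicate 1 and 0 to 4 counts in the Thor[2];Lsp2[B14] libraries. These genes too were named here after their values were seen. Of the 4, CG5687 met the limits in both pairs. The others were GC2 (0, 0 and 1 counts in the Thor[2] libraries, against 25, 27 and 25 in the Lsp2[A10] libraries), Rpt4R (1, 0 and 1, against 56, 19 and 23) and Cpr47Ea (1, 0 and 0, against 24, 15 and 19). GC2 is a mitochondrial glutamate carrier, Rpt4R a paralog of a proteasome ATPase and Cpr47Ea a cuticle protein. All 3 were named after their values were seen. GC2 and Rpt4R were also lower with Thor[2] in the Lsp2[B14] pair, outside the limits. GC2 had 4, 0 and 1 counts in Thor[2];Lsp2[B14], against 21, 27 and 26 in Lsp2[B14], and Rpt4R 7, 3 and 0, against 12, 39 and 17. Cpr47Ea overlapped there (19, 11 and 14, against 8, 11 and 21).

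**Figure D2:**
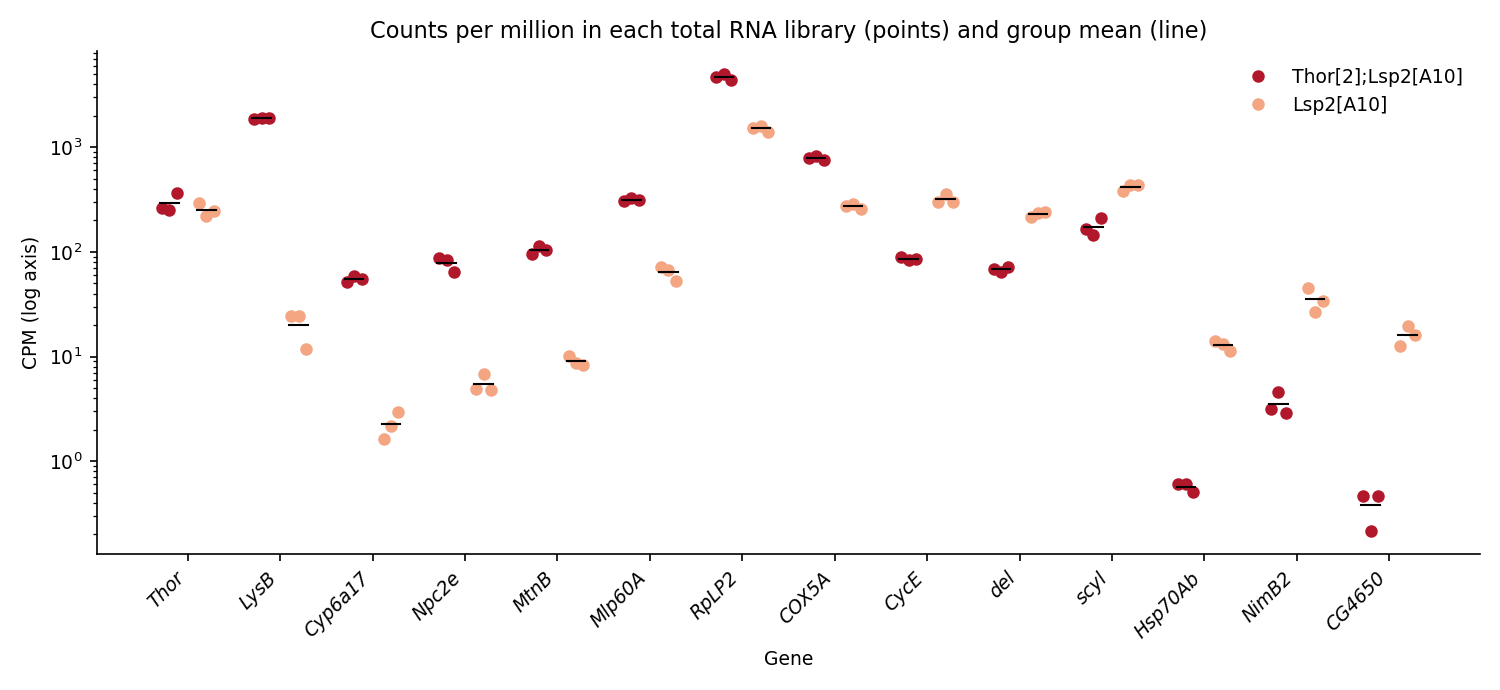
CPM (log axis) of 14 genes in the 3 Thor[2];Lsp2[A10] libraries (dark red, left of each pair) and the 3 Lsp2[A10] libraries (light orange), with group means as lines. Thor overlaps between the groups, while no other gene shown does.

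Genes of the protein-making machinery moved by class. Of 88 cytosolic ribosomal protein genes 84 were tested, of which 82 were called higher and 0 lower, with a median of 0.98. Their summed level was 173200 to 191900 CPM in the Thor[2] libraries, against 99190 to 112800 CPM in the Lsp2[A10] libraries. RpLP2, a stalk protein of the large subunit, had 4657, 5048 and 4367 CPM in the Thor[2] libraries, against 1532, 1602 and 1412 CPM in the Lsp2[A10] libraries (1.83 ± 0.13, adjusted p 3.6e-07). RpL39 stood at 1893, 2037 and 1908 CPM in the Thor[2] libraries, against 642, 556 and 525 CPM in the Lsp2[A10] libraries (1.96 ± 0.17). RpL11 stood at 2487, 2520.0 and 2408 CPM in the Thor[2] libraries, against 1074, 1044 and 995 CPM in the Lsp2[A10] libraries (1.46 ± 0.13). RpS5b, the ovary-enriched paralog of RpS5a, stood at 1256, 1225 and 1070.0 CPM in the Thor[2] libraries, against 539, 474 and 469 CPM in the Lsp2[A10] libraries (1.47 ± 0.13). No values overlapped. These genes are short (median 921 bases). With length-dependent scaling 46 were higher and 12 lower (median 0.28), RpLP2 changed by 0.78 and RpL39 by 0.29. Of 72 mitochondrial ribosomal protein genes 63 were higher and 1 lower (median 0.75, 783 bases), and the sign turned with length-dependent scaling (14 higher, 25 lower, median -0.08). Among them mRpL42 had 46.5, 47.4 and 43.7 CPM in the Thor[2] libraries, against 19.1, 19.8 and 16.1 CPM in the Lsp2[A10] libraries (1.53 ± 0.13). mRpL54 had 74.4, 78.1 and 70.2 CPM in the Thor[2] libraries, against 31.2, 35.0 and 31.2 CPM in the Lsp2[A10] libraries (1.39 ± 0.12).

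Initiation factors were called in both directions, where all genes gave 34.4% higher and 32.3% lower. Of 44 initiation factors and 4E-binding proteins tested, 21 were higher and 14 lower (median 0.17, 1967 bases). With library totals the split turned to 10 higher and 18 lower (median -0.04) and with length-dependent scaling to 9 and 16 (median -0.03). eIF4B, which assists the unwinding helicase, had 47.7, 49.8 and 52.5 CPM in the Thor[2] libraries, against 169, 163 and 177 CPM in the Lsp2[A10] libraries (-1.56 ± 0.09, adjusted p 8.89e-08), a fall that was -1.66 with length-dependent scaling. eIF4G2, a scaffold that bridges eIF4E and the ribosome, stood at 36.4, 38.3 and 43.9 CPM in the Thor[2] libraries, against 153, 177 and 156 CPM in the Lsp2[A10] libraries (-1.83 ± 0.20, -0.92 after length-dependent scaling). eIF4EHP, a cap-binding repressor, had a log2 change of -0.93 ± 0.10 but -0.15 (adjusted p 0.242) with that scaling. eIF3f1 rose to 352, 361 and 343 CPM in the Thor[2] libraries, against 258, 229.9 and 225 CPM in the Lsp2[A10] libraries (0.77 ± 0.09). Of 33 aminoacyl-tRNA synthetases 8 were higher and 14 lower (median -0.12, 2545 bases), against 8 and 8 with length-dependent scaling and 2 and 19 with library totals (median -0.33). The count higher was 4 without Lsp2[A10] replicate 1 or Thor[2] replicate 1 or 2, and 5 without Lsp2[A10] replicate 2. HisRS rose (0.62 ± 0.09) and the mitochondrial AspRS-m fell (-1.02 ± 0.11). Among 15 genes of the ATF4 stress response to eIF2 phosphorylation, 7 were higher and 4 lower (median 0.05, 2518 bases), against 4 and 6 with library totals (median -0.15) and 7 and 5 with length-dependent scaling (median 0.305). Its kinase PEK had 55.9, 53.6 and 57.1 CPM in the Thor[2] libraries, against 156, 161 and 151 CPM in the Lsp2[A10] libraries (-1.29 ± 0.12). The kinase Gcn2 had 31.7, 27.1 and 33.0 CPM in the Thor[2] libraries, against 79.6, 90.3 and 86.0 CPM in the Lsp2[A10] libraries (-1.28 ± 0.15). The targets Nmdmc (1.24 ± 0.12) and Ldh (1.12 ± 0.15) rose. Groups did not overlap for any of the 4.

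Most regulators of Tor were lower. Of 24 tested, 3 were called higher and 16 lower, with a median of -0.73 (3040 bases) and 1 higher and 17 lower after length-dependent scaling (median -0.30). Wdr24, of the GATOR2 complex that relays amino acids to mTORC1, had 20.2, 21.9 and 20.4 CPM in the Thor[2] libraries, against 52.3, 50.2 and 48.9 CPM in the Lsp2[A10] libraries (-1.07 ± 0.08, adjusted p 5.92e-07, -0.88 with length-dependent scaling). scyl and chrb are the fly homologs of the mTORC1 inhibitor REDD1. scyl stood at 166, 145 and 209.7 CPM in the Thor[2] libraries, against 384, 435 and 432 CPM in the Lsp2[A10] libraries (-1.06 ± 0.14). chrb stood at 118, 108 and 118 CPM in the Thor[2] libraries, against 237, 327 and 284 CPM in the Lsp2[A10] libraries (-1.10 ± 0.13). REPTOR-BP, partner of a transcription factor that mTORC1 holds in the cytoplasm, rose by 1.07 ± 0.11 with TMM and was not called with length-dependent scaling (0.06, adjusted p 0.577). For insulin signalling 7 of 20 genes were higher, about the share over all genes, and 9 lower (median 0.18, 3158 bases). With library totals 5 were higher and 9 lower (median -0.02), with length-dependent scaling 3 and 4 (median 0.035), and with TMM 4 were higher without Lsp2[A10] replicate 2 or Thor[2] replicate 2. InR, the insulin receptor, had 21.8, 20.8 and 32.0 CPM in the Thor[2] libraries, against 82.8, 99.9 and 84.1 CPM in the Lsp2[A10] libraries (-1.63 ± 0.22). Pi3K21B, the adaptor of phosphoinositide 3-kinase, had 73.8, 72.2 and 69.2 CPM in the Thor[2] libraries, against 154, 196 and 173 CPM in the Lsp2[A10] libraries (-1.08 ± 0.11). AkhR, the receptor for adipokinetic hormone, rose (0.77 ± 0.10). Pdk1 fell by 0.69 with TMM and changed by 0.11 with length-dependent scaling. Of 20 autophagy genes 5 were higher and 8 lower, where all genes gave 34.4% and 32.3% (median -0.18, 2415 bases). With length-dependent scaling 3 were higher and 9 lower (median -0.115), and with library totals 2 and 12. With TMM 3 were higher without Lsp2[A10] replicate 3 or Thor[2] replicate 2, with Atg17 (-1.26 ± 0.16) and the kinase gene Atg1 (-1.07 ± 0.16) among the falls. Atg4b fell (-0.48 ± 0.09), whereas Atg2 (-0.72 ± 0.12) had 0.05 with length-dependent scaling. Of 34 proteasome subunits 21 were higher and 4 lower (median 0.36, 1413 bases), and the sign turned with length-dependent scaling (9 higher, 12 lower, median -0.07). Prosbeta5 (1.11 ± 0.10), Prosalpha4 (1.10 ± 0.12) and Prosalpha5 (1.12 ± 0.14) rose under both.

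Most nuclear genes of oxidative phosphorylation were higher, while most mitochondrial ones were not called. Of 71 nuclear subunits tested (of 91) 68 were higher and 0 lower, with a median of 1.203 (853 bases), and with length-dependent scaling 53 were higher and 1 lower (median 0.50). COX5A, a subunit of cytochrome c oxidase, had 791, 826 and 749.5 CPM in the Thor[2] libraries, against 273, 286 and 255 CPM in the Lsp2[A10] libraries (1.74 ± 0.13, adjusted p 4.5e-07, 0.90 with length-dependent scaling). COX5B stood at 513, 531 and 534 CPM in the Thor[2] libraries, against 194, 198 and 200.4 CPM in the Lsp2[A10] libraries (1.61 ± 0.12). ATPsynB, of the ATP synthase stalk, stood at 473, 476 and 428 CPM in the Thor[2] libraries, against 189.5, 180.3 and 176 CPM in the Lsp2[A10] libraries (1.54 ± 0.12). The 3 genes were higher in every Thor[2] library than in any Lsp2[A10] library. Of 13 mitochondrially encoded genes (median 0.003, 789 bases) 0 were higher and 3 lower with length-dependent scaling (median -0.66), and with TMM 1 was called, mt:CoII, at 3650.0, 3779 and 3899 CPM in the Thor[2] libraries, against 1467, 2930.0 and 2689 CPM in the Lsp2[A10] libraries (0.87 ± 0.29, adjusted p 0.0169). That call was lost without Lsp2[A10] replicate 1 (0.61, adjusted p 0.0576) and the sign turned with length-dependent scaling (-0.07). Mitochondrial reads were 2.50 to 3.24% of counts in the Thor[2] libraries, against 1.28%, 3.55% and 3.46% in Lsp2[A10] replicates 1, 2 and 3, so the share was lowest in 1 Lsp2[A10] library.

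Antimicrobial peptide genes were higher in number, and most are very short. Of 33 tested, 22 were higher and 0 lower (median 1.64, 390 bases), and 11 and 2 with length-dependent scaling (median 0.24). Their sum was 3279 to 3897 CPM in the Thor[2] libraries and 1095 to 1368 CPM in the Lsp2[A10] libraries. IM33 had 396, 398 and 383 CPM in the Thor[2] libraries, against 103, 111 and 94.1 CPM in the Lsp2[A10] libraries (2.13 ± 0.16, 0.70 with length-dependent scaling). The Bomanin BomBc2, a short peptide of the Toll response, had 262, 328 and 319.5 CPM in the Thor[2] libraries, against 112, 104 and 95.4 CPM in the Lsp2[A10] libraries (1.75 ± 0.15, 0.83 with that scaling). Dso1, an antifungal peptide, stood at 428, 533 and 512 CPM in the Thor[2] libraries, against 192, 134 and 155 CPM in the Lsp2[A10] libraries (1.82 ± 0.16). BomT2 rose as well (1.91 ± 0.17). In polysome RNA 11 of 33 were higher and 4 lower, where all genes tested in that fraction gave 16.6% and 17.8%. BomT2 was lower there (-0.96, adjusted p 0.000435). Of 39 components of the Imd and Toll pathways 17 were higher and 9 lower (median 0.24, 1785 bases), and 14 and 9 with length-dependent scaling (median 0.185). SPE, the protease that activates Spätzle, had 41.3, 41.1 and 44.4 CPM in the Thor[2] libraries, against 19.3, 15.5 and 15.8 CPM in the Lsp2[A10] libraries (1.53 ± 0.14). Its substrate spz stood at 37.1, 35.6 and 37.7 CPM in the Thor[2] libraries, against 96.8, 104 and 94.1 CPM in the Lsp2[A10] libraries (-1.22 ± 0.11). The receptor Tl stood at 111, 112 and 118 CPM in the Thor[2] libraries, against 284, 341 and 304 CPM in the Lsp2[A10] libraries (-1.24 ± 0.11). The transcription factor dl stood at 47.8, 44.5 and 54.6 CPM in the Thor[2] libraries, against 126, 135 and 118 CPM in the Lsp2[A10] libraries (-1.16 ± 0.13). SPE was thus higher, and spz, Tl and dl lower, in 3 of 3 Thor[2] libraries, with the same signs after length-dependent scaling.

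Genes of hemocytes, the blood cells, and of thioester proteins moved in both directions. Of 26 tested, 15 were higher and 4 lower (median 0.94, 2594 bases, 17 and 3 with length-dependent scaling), although their summed level was 641.4 to 710.0 CPM in the Thor[2] libraries and 852.3 to 926.6 CPM in the Lsp2[A10] libraries. NimB2, a secreted Nimrod protein, fell to 3.14, 4.55 and 2.88 CPM in the Thor[2] libraries, against 44.8, 26.9 and 33.8 CPM in the Lsp2[A10] libraries (-3.12 ± 0.22, adjusted p 3.22e-07). Its paralogs NimB5 (1.58 ± 0.15) and NimC2 (1.86 ± 0.19) rose, as did Tep2, a thioester protein that binds microbes, at 66.1, 57.1 and 64.4 CPM in the Thor[2] libraries, against 36.3, 28.5 and 35.8 CPM in the Lsp2[A10] libraries (1.10 ± 0.11).  Of 11 Turandot and JAK-STAT genes 3 were higher and 3 lower, where all genes gave 34.4% and 32.3% (median 0.10, 2411 bases). The median was -0.10 with library totals. With length-dependent scaling 2 were higher and 2 lower (median 0.005), and with TMM 5 were higher without Lsp2[A10] replicate 3. The receptor dome (-1.12 ± 0.17) and the kinase hop (-1.31 ± 0.16) fell, Stat92E (-0.67 ± 0.09) had 0.01 after length-dependent scaling, and the short receptor et rose (0.95 ± 0.21). Of 17 heat shock genes 2 were higher and 9 lower (median -0.57, 2347 bases), and 2 and 8 with length-dependent scaling (median -0.68). Hsp70Aa had 0.141, 0.0429 and 0.180 CPM in the Thor[2] libraries, against 21.8, 14.5 and 12.5 CPM in the Lsp2[A10] libraries (-6.78 ± 0.74). Hsp70Ab had 0.610, 0.601 and 0.505 CPM in the Thor[2] libraries, against 14, 13.1 and 11.3 CPM in the Lsp2[A10] libraries (-4.28 ± 0.54). These are near-identical inducible chaperone genes, so their split is uncertain. Hsf, their activator, fell (-0.89 ± 0.11) and the mitochondrial chaperone gene Hsp60A rose (0.72 ± 0.09).

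Most digestive proteases and sterol carriers of the gut were higher. Of 32 midgut serine proteases 26 were higher and 0 lower (median 1.02, 903 bases), and 16 and 5 with length-dependent scaling (median 0.36). Jon25Bii had 396, 343 and 377 CPM in the Thor[2] libraries, against 34.9, 62.4 and 43.3 CPM in the Lsp2[A10] libraries (3.19 ± 0.23, adjusted p 3.22e-07, 2.45 with length-dependent scaling). Jon65Aiv stood at 5446, 4991 and 5456 CPM in the Thor[2] libraries, against 2704, 2385 and 2346 CPM in the Lsp2[A10] libraries (1.30 ± 0.12). The trypsin gene thetaTry stood at 229.6, 274 and 229 CPM in the Thor[2] libraries, against 74.1, 87.2 and 86.0 CPM in the Lsp2[A10] libraries (1.77 ± 0.16). Values did not overlap for any of them. Of 10 Niemann-Pick genes, whose products bind and move sterols, 8 were higher and 2 lower (median 1.10, 710 bases), and 4 and 1 with length-dependent scaling. Npc2e had 87.3, 83.8 and 64.6 CPM in the Thor[2] libraries, against 4.88, 6.78 and 4.79 CPM in the Lsp2[A10] libraries (4.04 ± 0.29, 3.06 with length-dependent scaling). Npc1b, the membrane protein of dietary sterol uptake, rose by 1.21 ± 0.12, and by 1.71 after length-dependent scaling, its exons being long (3971 bases). Among 18 maltases, amylases and other sugar-responsive digestive genes 3 were higher and 6 lower (median 0.02, 2069 bases, against -0.19 with library totals), and 3 and 6 with length-dependent scaling. Without Thor[2] replicate 3 the split was 5 and 5, and without Lsp2[A10] replicate 2 it was 2 and 4. Mal-A7 fell to 4.27, 5.10 and 1.15 CPM in the Thor[2] libraries, against 19.3, 26.3 and 19.9 CPM in the Lsp2[A10] libraries (-2.45 ± 0.43), beside Mal-A8 (-1.28 ± 0.29) and Mal-A5 (-0.39 ± 0.09). Mal-B2 was called higher (0.34 ± 0.07), though not with library totals (0.14, adjusted p 0.162). Of 18 vacuolar ATPase subunits, the proton pump of acid compartments, 9 were higher and 2 lower (median 0.30, 2345 bases), and 9 and 0 with length-dependent scaling (median 0.315). Those that rose included Vha14-1 (1.36 ± 0.13), Vha36-1 (0.97 ± 0.08) and Vha100-4 (0.71 ± 0.12).

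More carbohydrate genes were higher than lower, and lipid genes were called in each direction about as often as all genes. Of 24 carbohydrate genes 13 were higher and 7 lower (median 0.23, 2690 bases, 16 and 4 with length-dependent scaling), though only 3 were lower without Lsp2[A10] replicate 3 or Thor[2] replicate 1 or 2. fbp, fructose-1,6-bisphosphatase of gluconeogenesis, had 168, 158 and 144 CPM in the Thor[2] libraries, against 64.0, 58.3 and 60.7 CPM in the Lsp2[A10] libraries (1.57 ± 0.10, adjusted p 1.92e-07). Hex-C, a hexokinase, had 79.5, 88.8 and 83.0 CPM in the Thor[2] libraries, against 42.8, 42.2 and 44.3 CPM in the Lsp2[A10] libraries (1.16 ± 0.09). The glycolytic kinase Pgk had 369, 360.1 and 319 CPM in the Thor[2] libraries, against 196, 212 and 208 CPM in the Lsp2[A10] libraries (0.97 ± 0.10). Pepck2, which feeds gluconeogenesis at another step than fbp, fell to 4.36, 4.03 and 4.29 CPM in the Thor[2] libraries, against 18.0, 13.7 and 19.6 CPM in the Lsp2[A10] libraries (-1.81 ± 0.21). Of 28 lipid genes 10 were higher and 9 lower (median -0.11, 3163 bases), near the 34.4% and 32.3% of all genes. The counts were 7 and 14 with library totals and 16 and 4 with length-dependent scaling (median 0.35). The hormone-sensitive lipase Hsl (-1.01 ± 0.10) fell and the acid lipase gene Lip4 (1.12 ± 0.12) and the desaturase Desat1 (0.57 ± 0.09) rose. Lsd-2, a perilipin of lipid droplets, had -0.69 ± 0.09 with TMM and -0.09 (adjusted p 0.436) with length-dependent scaling.

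Detoxification genes held some of the larger rises, and the count of P450 calls hardly moved with length-dependent scaling. Of 82 cytochrome P450 genes tested 45 were higher and 10 lower (median 0.53, 1811 bases), against 42 and 10 with length-dependent scaling (median 0.49). Cyp6a17 had 51.8, 58.6 and 54.6 CPM in the Thor[2] libraries, against 1.64, 2.16 and 2.94 CPM in the Lsp2[A10] libraries (4.81 ± 0.19, adjusted p 6.17e-09). Cyp6a2, known for its role in insecticide resistance, stood at 37.1, 40.8 and 49.4 CPM in the Thor[2] libraries, against 6.94, 5.09 and 4.95 CPM in the Lsp2[A10] libraries (3.11 ± 0.15). Cyp9c1 stood at 16.5, 18.7 and 16.4 CPM in the Thor[2] libraries, against 0.944, 0.678 and 1.59 CPM in the Lsp2[A10] libraries (4.19 ± 0.25). With Cyp4d21 above, these were the 4 called members with the lowest adjusted p, and no values overlapped. The summed level of the list nevertheless was not higher, with 6454 to 6761 CPM in the Thor[2] libraries and 8659, 6158 and 8343 CPM in the Lsp2[A10] libraries. Of 32 UDP-glycosyltransferases 15 were higher and 5 lower (median 0.57, 1772 bases), and 15 and 5 with length-dependent scaling (median 0.36). Ugt36E1 had 45.4, 40.6 and 44.3 CPM in the Thor[2] libraries, against 12.7, 10.9 and 12.4 CPM in the Lsp2[A10] libraries (2.05 ± 0.14), Ugt37A2 rose (1.64 ± 0.22) and Ugt37C2 fell (-1.65 ± 0.21). Of 35 glutathione transferases 26 were higher and 1 lower (median 0.66, 890 bases), but 9 and 5 with length-dependent scaling (median 0.02). GstE11 stood at 58.8, 64.6 and 49.9 CPM in the Thor[2] libraries, against 21.1, 19.0 and 16.7 CPM in the Lsp2[A10] libraries (1.81 ± 0.15, 1.10 with length-dependent scaling).

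Metal and redox genes included 2 metallothioneins, which bind copper and zinc. Of 22 redox genes 14 were higher and 4 lower (median 0.54, 1187 bases, 11 and 4 with length-dependent scaling). MtnB had 95.5, 115 and 105 CPM in the Thor[2] libraries, against 10.0, 8.73 and 8.22 CPM in the Lsp2[A10] libraries (3.75 ± 0.27, adjusted p 5.01e-07, 2.67 with length-dependent scaling). MtnA had 2536, 2971 and 2993 CPM in the Thor[2] libraries, against 732, 592 and 565 CPM in the Lsp2[A10] libraries (2.37 ± 0.18, 1.44 with that scaling). All Thor[2] libraries were above all Lsp2[A10] libraries for both. Sod1, cytosolic superoxide dismutase, stood at 649.7, 672 and 591 CPM in the Thor[2] libraries, against 318, 304 and 299.7 CPM in the Lsp2[A10] libraries (1.26 ± 0.11), and maf-S, partner of the antioxidant regulator cnc, rose (1.25 ± 0.12).

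In this whole-fly RNA, replication and germline lists went one way with TMM, and eggshell and yolk lists the other. DNA replication and cell cycle genes were lower almost throughout, with 0 of 29 higher and 24 lower (median -0.78, 2452 bases), and 28 lower with length-dependent scaling (median -0.75). CycE, which drives entry into S phase, had 88.6, 84.3 and 85.4 CPM in the Thor[2] libraries, against 298, 356 and 298 CPM in the Lsp2[A10] libraries (-1.68 ± 0.14, adjusted p 7.97e-07, -1.02 with length-dependent scaling). PolA1, the catalytic subunit of DNA polymerase alpha, had 43.1, 47.6 and 39.2 CPM in the Thor[2] libraries, against 136, 159 and 150.3 CPM in the Lsp2[A10] libraries (-1.58 ± 0.13). The phosphatase gene stg had 123, 119 and 112 CPM in the Thor[2] libraries, against 337, 410.1 and 358 CPM in the Lsp2[A10] libraries (-1.44 ± 0.12). The spindle checkpoint kinase gene BubR1 had 33.8, 35.2 and 35.3 CPM in the Thor[2] libraries, against 99.6, 114 and 118 CPM in the Lsp2[A10] libraries (-1.47 ± 0.12). Each was lower in 3 of 3 Thor[2] libraries. Of 31 genes of the piRNA pathway, which silences transposons in the germline, 2 were higher and 22 lower (median -0.63, 2328 bases), and 2 and 23 with length-dependent scaling (median -0.62). del, which licenses transcription of piRNA clusters, fell to 68.9, 64.5 and 70.9 CPM in the Thor[2] libraries, against 215, 236 and 238 CPM in the Lsp2[A10] libraries (-1.55 ± 0.13). SoYb (-2.04 ± 0.17), nxf2, an export factor used in transposon silencing (-1.69 ± 0.14), and krimp (-1.34 ± 0.14) fell too. Of 33 germline and maternal mRNAs 3 were higher and 22 lower (median -0.81, 2883 bases), and 1 and 22 with length-dependent scaling (median -0.40). Among these tor, the terminal receptor of the embryo, had 41.1, 40.5 and 39.7 CPM in the Thor[2] libraries, against 116, 136 and 121 CPM in the Lsp2[A10] libraries (-1.42 ± 0.12). twe, the meiotic phosphatase, had 47.7, 41.6 and 40.0 CPM in the Thor[2] libraries, against 109, 133 and 118 CPM in the Lsp2[A10] libraries (-1.28 ± 0.12). pum, a translation repressor, fell by 1.39 and CycB3 by 1.15 on the log2 scale.

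Eggshell and yolk genes, made late in the follicle and in the fat body, leaned the other way with TMM. Of 9 chorion genes 6 were higher and 0 lower (median 0.72, 1116 bases), but 1 and 0 with length-dependent scaling, where the median turned to -0.11. Cp36 had 1908, 1972 and 1791 CPM in the Thor[2] libraries, against 1213, 886 and 1173 CPM in the Lsp2[A10] libraries (0.996 ± 0.18). Cp38 had 2216, 2228 and 2072 CPM in the Thor[2] libraries, against 1555, 1006 and 1433 CPM in the Lsp2[A10] libraries (0.91 ± 0.18), with a lowest value in Lsp2[A10] replicate 2 in both. Cp15 (0.93 ± 0.23) had -0.26 with length-dependent scaling. Of 13 vitelline membrane and other eggshell genes 7 were higher and 3 lower (median 0.57, 1344 bases), and 2 and 2 with length-dependent scaling (median -0.13). yellow-g had 282, 327 and 249 CPM in the Thor[2] libraries, against 141, 128 and 125 CPM in the Lsp2[A10] libraries (1.33 ± 0.20). yellow-g2 had 229, 231 and 179 CPM in the Thor[2] libraries, against 89.9, 97.0 and 94.9 CPM in the Lsp2[A10] libraries (1.38 ± 0.21). Both were also called with length-dependent scaling, whereas Cad87A fell (-1.58 ± 0.18). Of the 3 yolk protein genes Yp3 had 6359, 5744 and 5255 CPM in the Thor[2] libraries, against 3963, 2641 and 3535 CPM in the Lsp2[A10] libraries (0.98 ± 0.14). Yp1 had 14770.0, 16620.0 and 14980.0 CPM in the Thor[2] libraries, against 11990.0, 7241 and 9670.0 CPM in the Lsp2[A10] libraries (0.89 ± 0.14). Yp2 had 8372, 8121 and 7887 CPM in the Thor[2] libraries, against 7709, 4558 and 6388 CPM in the Lsp2[A10] libraries (0.59 ± 0.14), a call lost with length-dependent scaling (0.32, adjusted p 0.0574). The lowest of the 3 Lsp2[A10] values was again replicate 2. With the yolk receptor gene yl, 3 genes of this list were higher and 1 lower (1743 bases), and 2 and 0 with length-dependent scaling. The yolk receptor gene yl, expressed in the oocyte, had 637, 620.5 and 646 CPM in the Thor[2] libraries, against 1517, 1352 and 1241 CPM in the Lsp2[A10] libraries (-0.91 ± 0.16, -0.12 and not called with length-dependent scaling).

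Markers of other sources were looked at beside these. Of 50 male accessory gland genes 0 were tested, and together they held 0.703 to 1.30 CPM in the Thor[2] libraries and 0.721 to 1.36 CPM in the Lsp2[A10] libraries. Of 12 Y-linked genes FDY alone was tested. Early zygotic genes, which mark embryos held in the female, gave 13 of 21 higher and 1 lower (median 1.55, 1567 bases), and 9 and 0 with length-dependent scaling. With TMM the count higher was 7 without Lsp2[A10] replicate 3 and 8 without Thor[2] replicate 2 or 3, and the summed levels overlapped (62.7 to 103.5 CPM in the Thor[2] libraries, 79.3 to 100.4 CPM in the Lsp2[A10] libraries). scw, a BMP ligand, had 0.563, 1.03 and 1.80 CPM in the Thor[2] libraries, against 0.0411, 0.0848 and 0 CPM in the Lsp2[A10] libraries (4.82 ± 0.91). halo had 2.95, 6.86 and 4.18 CPM in the Thor[2] libraries, against 0.164, 1.44 and 0.286 CPM in the Lsp2[A10] libraries (3.09 ± 0.68), while slam, a gene of embryonic cell formation whose level was the larger, had 20.8, 30.8 and 25.7 CPM in the Thor[2] libraries, against 52.4, 60.5 and 49.7 CPM in the Lsp2[A10] libraries (-0.87 ± 0.19) and was not called with length-dependent scaling. Of 5 spermatheca genes 4 were higher and 1 lower (1039 bases, 3 and 0 with length-dependent scaling), with Send1, a protease of the sperm storage organ, at 207, 194 and 126 CPM in the Thor[2] libraries, against 52.4, 63.8 and 89.4 CPM in the Lsp2[A10] libraries (1.55 ± 0.25). Of 3 testis-list genes tested 1 was higher and 2 lower (2590 bases, 1 and 1 with length-dependent scaling). Of 6 larval serum and fat body proteins 0 were higher and 2 lower under each scaling (2563 bases), but not the same 2. With TMM Lsp1gamma was lower, at 0.703, 0.515 and 0.649 CPM in the Thor[2] libraries, against 4.31, 0.890 and 3.15 CPM in the Lsp2[A10] libraries (-1.95 ± 0.67). Fbp1 was lower with TMM (-2.88 ± 1.16) and lost its call with length-dependent scaling (-2.51, adjusted p 0.0782). With TMM the count lower was 0 without Thor[2] replicate 2, 3 without Lsp2[A10] replicate 2 and 1 without any other library. What part any of these sources has in the ovary and fat body lists was not tested.

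More cuticle genes were higher than lower, with uneven libraries. Of 42 cuticle proteins tested (of 98 in the table) 25 were higher and 2 lower (median 1.35, 906 bases), and 8 and 3 with length-dependent scaling. Their sum was 369.9, 401.4 and 393.8 CPM in the Thor[2] libraries, against 249.9, 190.6 and 171.8 CPM in the Lsp2[A10] libraries. Cpr49Ab had 133, 145 and 128 CPM in the Thor[2] libraries, against 66.3, 53.5 and 46.8 CPM in the Lsp2[A10] libraries (1.49 ± 0.14). Cpr51A had 9.61, 13.8 and 14.1 CPM in the Thor[2] libraries, against 1.15, 1.02 and 0.941 CPM in the Lsp2[A10] libraries (3.79 ± 0.32). Of 26 Tweedle and Osiris genes, which are linked to cuticle building and are mostly active before adult life, 17 were higher and 0 lower (median 3.04, 1233 bases, 14 and 1 with length-dependent scaling). Their sum was 21.5 CPM in Thor[2] replicate 1 and 110.1 and 107.0 CPM in replicates 2 and 3, against 26.6, 17.0 and 11.6 CPM in the Lsp2[A10] libraries, so Thor[2] replicate 1 lay within the Lsp2[A10] range. Osi14, at 1.69, 2.19 and 2.23 CPM in the Thor[2] libraries, against 0.328, 0.127 and 0.450 CPM in the Lsp2[A10] libraries (2.93 ± 0.66), did not rest on replicates 2 and 3, whereas Osi18 (0.141, 2.44 and 2.02 CPM in the Thor[2] libraries, against 0.0411, 0.0424 and 0 CPM in the Lsp2[A10] libraries) and TwdlW (0.0938, 1.76 and 1.80 CPM in the Thor[2] libraries, against 0, 0.0424 and 0 CPM in the Lsp2[A10] libraries) did.

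Sarcomere and phototransduction genes leaned higher under both scalings. Of 28 sarcomere genes 19 were higher and 4 lower (median 0.80, 2712 bases), and 25 and 0 with length-dependent scaling (median 0.996). Mlp60A, a muscle LIM protein, had 304, 328 and 314 CPM in the Thor[2] libraries, against 72.0, 67.7 and 52.3 CPM in the Lsp2[A10] libraries (2.51 ± 0.18, adjusted p 3.22e-07). Mlc2, myosin light chain, stood at 949, 912 and 1133 CPM in the Thor[2] libraries, against 463, 458 and 490.1 CPM in the Lsp2[A10] libraries (1.29 ± 0.12). wupA, troponin I, stood at 365, 372 and 432 CPM in the Thor[2] libraries, against 236, 211 and 207 CPM in the Lsp2[A10] libraries (1.04 ± 0.10). Mlp84B rose as well (1.06 ± 0.11). Of 26 phototransduction genes 15 were higher and 4 lower (median 0.78, 2413 bases), and 21 and 0 with length-dependent scaling (median 0.75). The opsin gene Rh3 had 122, 132 and 134 CPM in the Thor[2] libraries, against 75.2, 69.6 and 68.1 CPM in the Lsp2[A10] libraries (1.07 ± 0.09). The opsin gene Rh4 had 128, 136 and 159.6 CPM in the Thor[2] libraries, against 77.8, 67.7 and 67.2 CPM in the Lsp2[A10] libraries (1.20 ± 0.11). The arrestin gene Arr1 had 562, 554 and 629 CPM in the Thor[2] libraries, against 304, 324 and 272 CPM in the Lsp2[A10] libraries (1.16 ± 0.09). The 3 genes rose without overlap. ninaA, a chaperone of rhodopsin, rose too (2.15 ± 0.20).

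Neuronal genes gave a result that turned with the scaling. Of 20 tested, 0 were higher and 12 lower with TMM (median -0.69), but their exons are the longest of any list (median 7622 bases) and with length-dependent scaling 2 were higher and 4 lower (median 0.09). ple, tyrosine hydroxylase, which makes dopamine and serves the cuticle as well as neurons, had 16.0, 13.7 and 15.8 CPM in the Thor[2] libraries, against 75.1, 44.7 and 32.5 CPM in the Lsp2[A10] libraries (-1.53 ± 0.22, -1.06 with length-dependent scaling). The sodium channel gene para (-1.81 ± 0.30, -0.74) and Syx1A (-1.08 ± 0.19, -0.55) were lower under both, and unc-13 (-1.20 ± 0.15) was not called under the second (-0.05). Of 31 neuropeptide genes, which are short (1033 bases), 14 were higher and 1 lower (median 0.61), and 5 and 1 with length-dependent scaling. Nplp2 had 2995, 2903 and 3318 CPM in the Thor[2] libraries, against 965, 885 and 960.5 CPM in the Lsp2[A10] libraries (1.91 ± 0.16, 0.87 with that scaling). CCHa2, a nutrient-dependent hormone of fat body and gut, had 53.1, 53.9 and 60.3 CPM in the Thor[2] libraries, against 31.2, 33.0 and 28.1 CPM in the Lsp2[A10] libraries (1.06 ± 0.10). NPF (1.38 ± 0.19) and Tk (0.84 ± 0.13), both also gut hormones, rose.

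Of 30 odorant binding proteins 20 were higher and 0 lower (median 0.90, 644 bases), and 8 and 2 with length-dependent scaling (median 0.04). Obp99a had 314, 226 and 180.1 CPM in the Thor[2] libraries, against 58.9, 50.7 and 42.0 CPM in the Lsp2[A10] libraries (2.46 ± 0.22, 1.41 with length-dependent scaling). Of 28 genes of ecdysone and juvenile hormone 7 were higher and 14 lower (median -0.42, 4011 bases), with the median turned to 0.205 by length-dependent scaling (5 and 3). EcR, the ecdysone receptor, had 29.8, 28.1 and 33.9 CPM in the Thor[2] libraries, against 81.5, 92.5 and 83.4 CPM in the Lsp2[A10] libraries (-1.29 ± 0.15, -0.35 with length-dependent scaling). sro, an enzyme of ecdysone synthesis, had 5.72, 5.23 and 4.90 CPM in the Thor[2] libraries, against 1.64, 1.74 and 1.35 CPM in the Lsp2[A10] libraries (1.95 ± 0.23). Jheh3, which degrades juvenile hormone, rose (0.63 ± 0.08), and ftz-f1 (-1.12 ± 0.11) was not called with length-dependent scaling (-0.22). Of 10 clock genes 1 was higher and 3 lower (median 0.08, 4521 bases, against -0.12 with library totals), but 7 and 2 with length-dependent scaling (median 0.485). Of these cry (0.51 ± 0.10) was higher and cyc (-0.48 ± 0.10) lower under both scalings. Clk (-0.81 ± 0.19) lost its call and cwo (-0.40 ± 0.11) turned to 0.26 with length-dependent scaling.

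**Figure D3:**
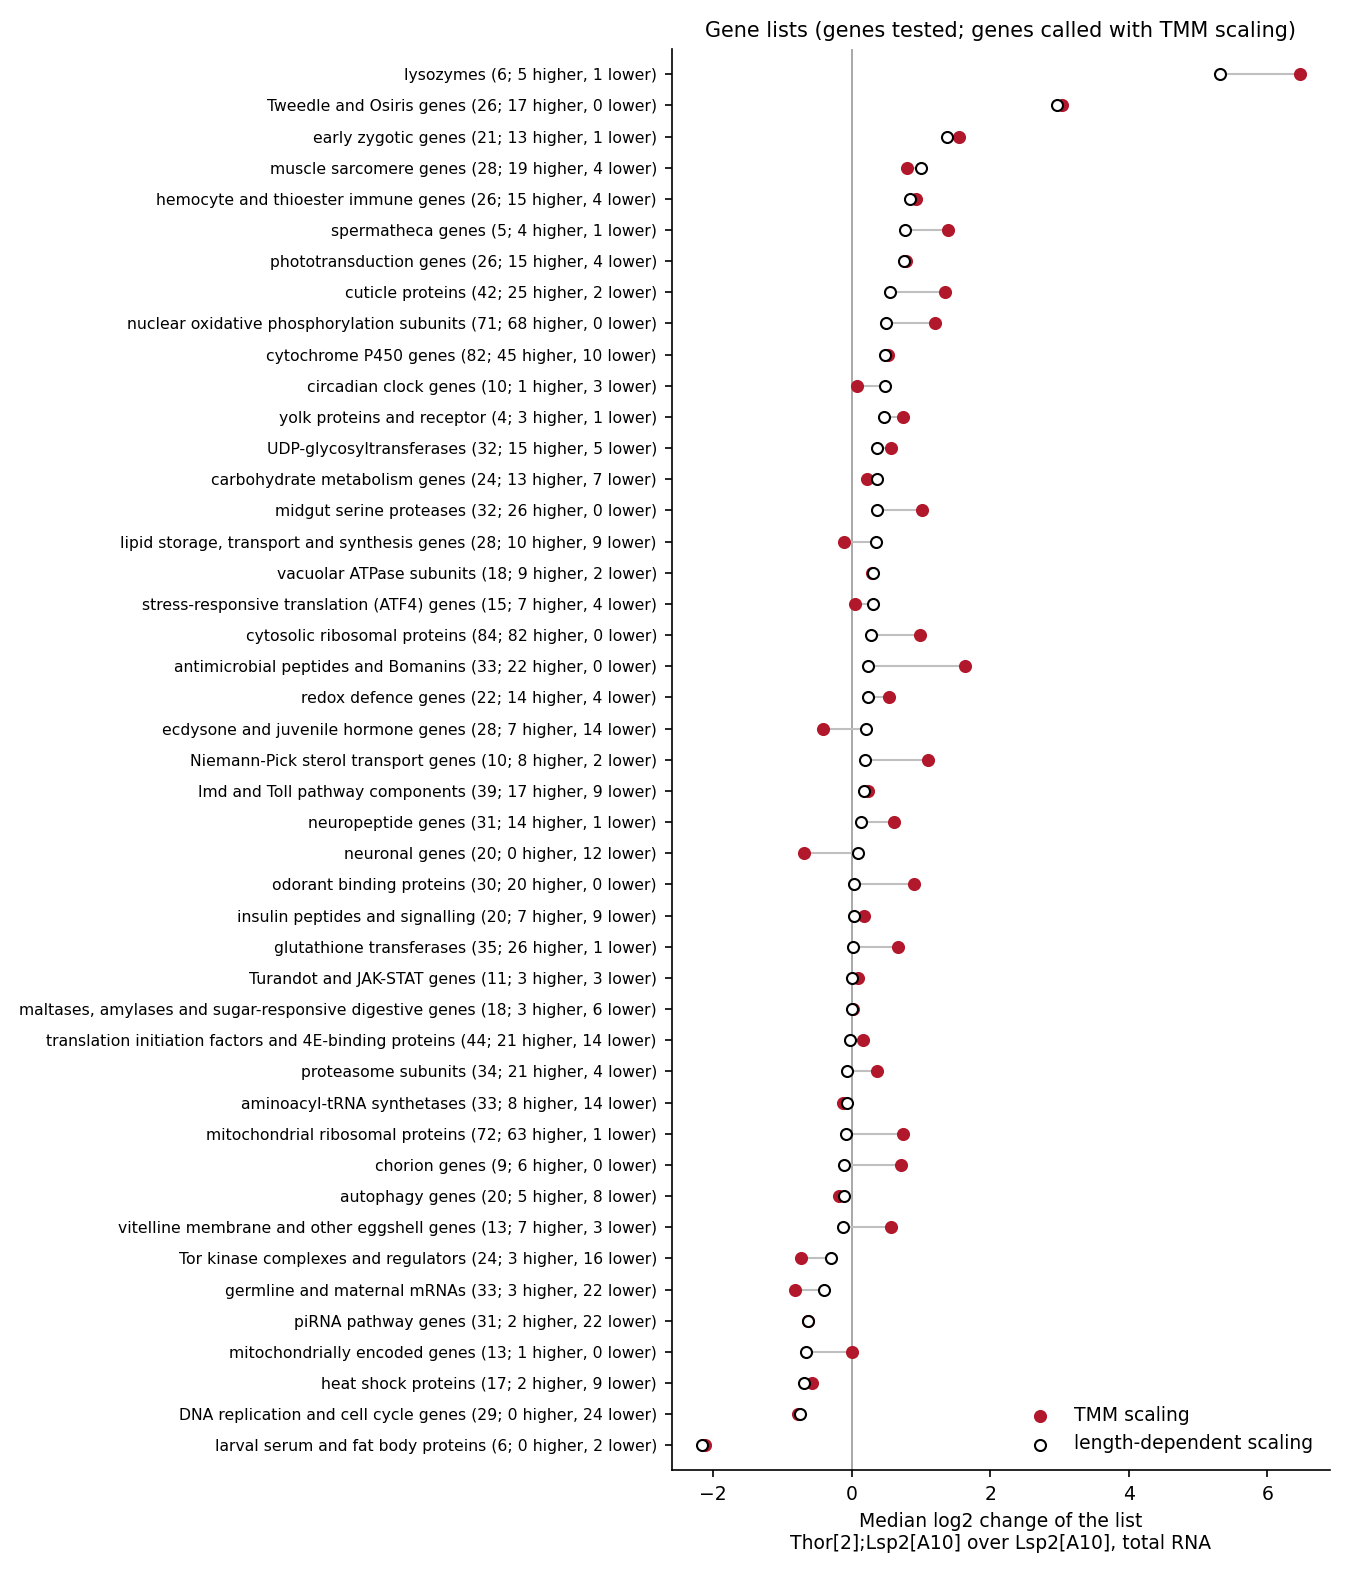
Median log2 change of each list with at least 4 genes tested, Thor[2];Lsp2[A10] over Lsp2[A10], with TMM scaling (red) and length-dependent scaling (white). Labels give the genes tested and those called higher and lower with TMM. Lists of short genes, such as mitochondrial ribosomal proteins (0.75 and -0.08), shift left, lists of long genes, such as neuronal genes (-0.69 and 0.09), shift right, and P450, sarcomere, phototransduction, piRNA and replication lists stay close.

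Called genes were spread over the genome. On X, 2L, 2R, 3L and 3R 66.2 to 68.3% of tested genes were called, against 59.5% of 79 genes on the fourth chromosome and 7.69% of 13 on the mitochondrial genome. Genes near Thor were not called more often, with 64.3% of 42 genes within 0.2 Mb, 71.0% of 145 between 0.2 and 1 Mb, 65.8% of 646 between 1 and 5 Mb and 67.1% of 1026 farther away on 2L. Changes of at least 1 on the log2 scale made up 33.3% of the 42 nearest genes, against 25.6% on 2L as a whole. Of the neighbours, CG3246 had 67.0, 64.1 and 64.3 CPM in the Thor[2] libraries, against 33.3, 25.5 and 32.7 CPM in the Lsp2[A10] libraries (1.29 ± 0.10). The helicase gene Pif1 had 40.5, 42.7 and 36.9 CPM in the Thor[2] libraries, against 63.1, 75.6 and 71.9 CPM in the Lsp2[A10] libraries (-0.61 ± 0.11). CG15414 (1.54 ± 0.34) and ND-PDSW, a subunit of complex I (1.39 ± 0.11), also rose. Pgant4 (0.50 ± 0.21, adjusted p 0.0443) and Cog3 (-0.47 ± 0.13, adjusted p 0.00487) lost their calls under alternatives, Pgant4 in 8 of them and Cog3 with length-dependent scaling.

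The same comparison was made on the other allele. The pair of Thor[2];Lsp2[B14] and Lsp2[B14] shares no library with the Lsp2[A10] pair, and 7169 genes (69.2%) were called in it. Of the 6915 calls in the Lsp2[A10] pair 95.1% had the same sign in the Lsp2[B14] pair, against 86.2% of all genes tested, and 5745 were called in the same direction in both (83.1% of the calls in one and 80.1% of those in the other). The log2 changes correlated across genes (Pearson 0.816, Spearman 0.853, 10354 genes that are not independent). Both pairs show the length trend described above. Genes called in opposite directions numbered 68.

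The difference between the pairs was tested directly. It was called in 424 genes (4.10%), 316 with a more positive change in the Lsp2[A10] pair (3.05%) and 108 with a more negative one (1.04%). DESeq2 called 752. Leaving out 1 library gave counts down to 197, when Thor[2];Lsp2[B14] lost replicate 2, and up to 717, when the same group lost replicate 3. Counts more than 1.5 times smaller also came without Lsp2[A10] replicate 2 (236), Lsp2[B14] replicates 2 (261) and 3 (225) and Thor[2];Lsp2[A10] replicates 1 (273) and 3 (218). Cytochrome P450 genes held 16 of the calls, sarcomere genes 6 and hemocyte genes 5. Cyp4d21 rose by 5.78 ± 0.37 in the Lsp2[A10] pair and had 0.59 in the Lsp2[B14] pair, a difference of 5.18 (adjusted p 6.57e-05). Cyp9c1 rose by 4.19 ± 0.25 and had 0.51 (difference 3.68). CG4650 fell by 5.17 and had -0.13 (difference -5.04, adjusted p 7e-06). CG33306, at 6.52, 5.19 and 4.76 CPM in the Thor[2] libraries, against 47.0, 57.0 and 56.7 CPM in the Lsp2[A10] libraries, fell by 3.09 and rose by 0.68 in the Lsp2[B14] pair. NimB2 fell by 3.12 and had 0.36, and Tep2 rose by 1.10 ± 0.11 and fell by 0.62 in the Lsp2[B14] pair. alph, a protein phosphatase, at 39.1, 45.4 and 55.2 CPM in the Thor[2] libraries, against 215, 243 and 243 CPM in the Lsp2[A10] libraries, fell by 2.13 and had -0.23. CG14500, at 184, 188 and 218 CPM in the Thor[2] libraries, against 17.1, 14.8 and 16.7 CPM in the Lsp2[A10] libraries, rose by 3.80 ± 0.16 and by 1.23. Lists that were lower in both pairs included replication genes (24 and 17 of 29) and piRNA genes (22 and 18 of 31), and heat shock genes (9 and 11 of 17). Cytosolic ribosomal proteins were higher in both (82 and 82 of 84). Over all genes tested, 35.2% were called higher and 34.0% lower in the Lsp2[B14] pair. Some other lists had fewer members called higher in that pair. Genes called higher in the Lsp2[A10] and the Lsp2[B14] pair were 13 and 2 of 21 early zygotic genes, 6 and 2 of 9 chorion genes and 15 and 8 of 26 hemocyte and thioester genes. Their medians in the Lsp2[B14] pair were 0.195, 0.154 and 0.208. The difference between the pairs was itself called in 0, 1 and 5 members of these lists, against 4.10% of all genes. Unequal counts of calls alone thus do not show that the early zygotic and chorion lists differ between the pairs.

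**Figure D4:**
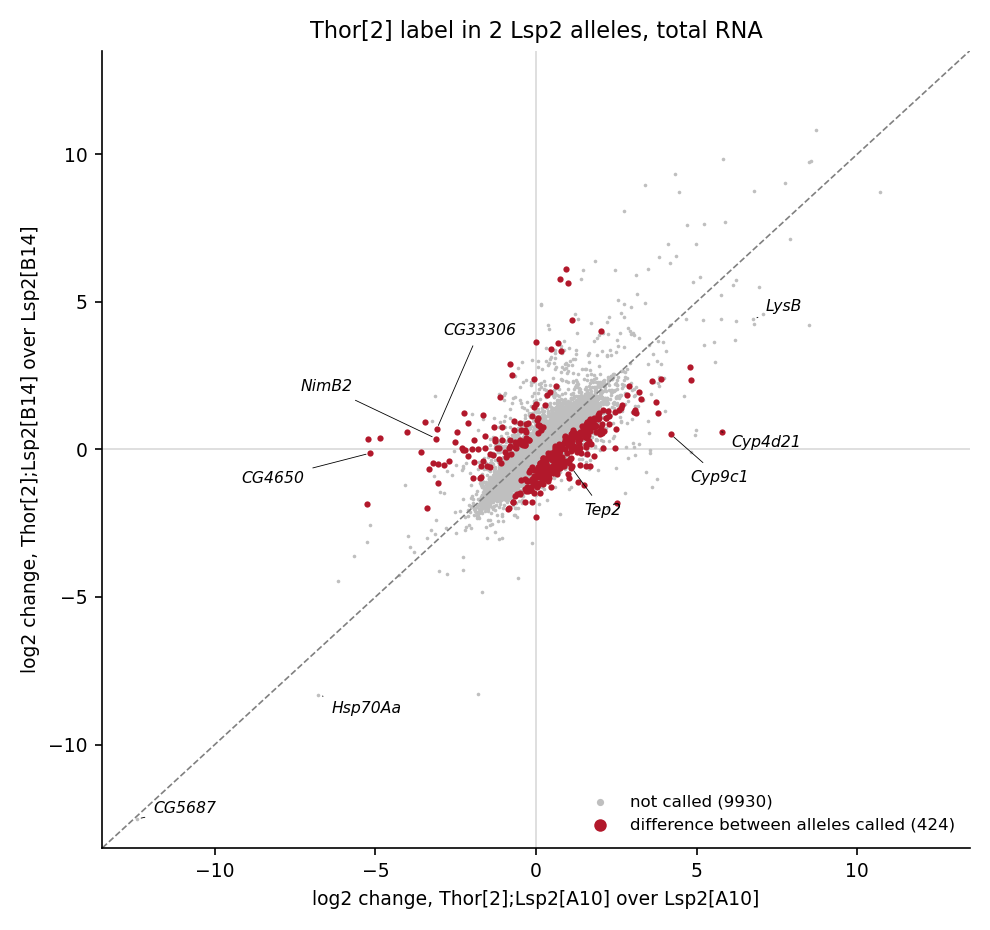
Log2 change of each gene in total RNA for Thor[2];Lsp2[A10] over Lsp2[A10] (horizontal) and Thor[2];Lsp2[B14] over Lsp2[B14] (vertical), with the line of equality dashed. The 424 genes called for a difference between the pairs are red and the other genes grey. CG5687 and Hsp70Aa fall in both, and Cyp4d21, Cyp9c1, CG4650 and NimB2 lie near 0 on the vertical axis.

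Polysome RNA of the same pair had fewer calls, and the direction of change often differed from total RNA. Of 10544 genes tested 3624 (34.4%) were called, 1747 higher (16.6%) and 1877 lower (17.8%), and with library totals 951 and 3619. Of the 6833 genes called in total RNA and tested in polysomes, 64.9% had the same sign, near the 60.9% of all genes tested in both, 1928 were called in the same direction (28.2%) and 653 in the opposite one. Polysome libraries held 3.13 to 26.8 M counts, the fewest in Lsp2[A10] replicate 1. Lysozymes kept their direction (5 of 6 higher and 1 lower), as did cytosolic ribosomal proteins (73 of 84 higher and 0 lower, median 0.99) and replication genes (1 higher and 18 of 29 lower, median -0.65). Cyp6a17 changed by 7.59, Npc2e by 3.21 and del by -1.50. Of 70 nuclear oxidative phosphorylation subunits 18 were higher and 2 lower (median 0.255), against 16.6% of all genes tested in polysome RNA called higher. Chorion genes had a median of -0.61 (0 higher and 2 of 9 lower), and sarcomere genes one of -0.06 (5 higher and 5 of 28 lower). Nplp2, at 1.91 ± 0.16 in total RNA, had -0.56 in polysomes (adjusted p 0.0163), Arr1 -0.88 (adjusted p 0.000175) and Rheb -1.37 (adjusted p 2.65e-05).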

How the data were processed

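Per the labels' protocols, whole females were ground in liquid nitrogen, part of the powder gave total RNA and the rest went on a sucrose gradient, poly(A) RNA was selected and fragmented, and libraries were read on a NovaSeq. The authors deposited whole-number counts per gene and library, and the submitters' processing notes name fastp 0.23.2, Bowtie2 2.3.4.1, STAR 2.2.1, featureCounts 1.6.0 and R 4.2.0 and the build BDGP6 without role or order. The strand setting and the treatment of reads that match several genes are not given in the sources used here, so near-identical, overlapping and antisense genes are uncertain. Gene symbols, positions and merged exon lengths came from the BDGP6.54 annotation, which matched all but 10 of 13925 features.

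Counts of the 12 total RNA libraries of the 4 groups Thor[2];Lsp2[A10], Lsp2[A10], Thor[2];Lsp2[B14] and Lsp2[B14] were fitted together in edgeR 4.0.16 (R 4.3.3) after its expression filter, with TMM factors and the robust quasi-likelihood test. Contrasts were taken within each allele and between the alleles, and the 12 polysome libraries were fitted in the same way. Depth was 18.5 to 33.9 M counts in total RNA, which fixes the counting error of a gene at a given CPM but not the spread between replicates. Simulated counts with known changes in a small part of the genes, as many up as down, were used to check the code of the fit. They do not show how TMM scaling behaves where most genes differ. Alternatives were RLE factors, library totals, other filters, a replicate block, DESeq2 1.42.0, the compared groups alone, each library left out, and length-dependent scaling. The last adds to the TMM offset a lowess curve (span 0.3) of each library's log2 deviation on log2 exon length, and was added after the data were seen.

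The comparison, the members and the 48 gene lists were chosen with earlier results of these data known, and lists were edited afterwards to remove genes that did not belong. Genes were named by a rule. It took Thor, Lsp2 and Rheb, the 12 largest rises and 12 largest falls among called genes whose groups did not overlap and whose mean count was 50 or more, up to 4 called members per list by adjusted p (or up to 2 of the highest level where none was called), up to 6 called genes within 200 kb of Thor and up to 8 genes by the adjusted p of the difference between alleles. The labels do not say that replicate numbers pair the samples, so no block was used in the main fit.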

Additional observations from a re-analysis of the deposited data

Results flagged for a closer look

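For 27 of the genes named, the change with Thor[2] differed between the Lsp2[A10] and the Lsp2[B14] pair by the test of the difference itself (edgeR's quasi-likelihood test, Benjamini-Hochberg over all genes). Values are the log2 change in the Lsp2[A10] pair minus that in the Lsp2[B14] pair. The genes were partly named for this difference, so their number is not a result.

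Among P450 genes and glycosyltransferases the difference was 5.18 for Cyp4d21, 3.68 for Cyp9c1, 2.02 for Cyp6a17, 1.88 for Cyp6a2, -3.48 for Cyp12d1-p, 1.19 for Ugt36E1 and -1.24 for Ugt37C2. Cyp4d21 and Cyp9c1 stand out, with large rises in the Lsp2[A10] pair (5.78 ± 0.37 and 4.19 ± 0.25) against 0.59 and 0.51 in the Lsp2[B14] pair. Cyp12d1-p has a near-identical neighbour, so its counts are uncertain.

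Among immune genes it was -3.48 for NimB2, 1.28 for NimC2, 1.72 for Tep2 and 1.05 for Dso1. Tep2 is the one that was called in opposite directions, at 1.10 ± 0.11 and -0.62. In metabolism and digestion it was -1.40 for Adh, -1.83 for Pepck2, -3.03 for Mal-A7, 1.24 for Jon25Bii and 0.74 for Npc1b. Among yolk and eggshell genes, where Yp3, yellow-g and Cp7Fa were called in the Lsp2[A10] pair, it was 0.82 for Yp3, 1.14 for yellow-g and 1.11 for Cp7Fa. For the remaining genes it was 0.72 for Mlp84B of muscle, 1.31 for sro, 1.04 for Vha100-4, -3.39 for CG13138, -5.04 for CG4650, -3.77 for CG33306, 2.57 for CG14500 and -1.89 for alph. The call of a difference was lost in at least 1 fit without a library for CG13138, Adh, Dso1, Cp7Fa, yellow-g, Yp3, Jon25Bii, Npc1b, Ugt37C2, Mlp84B and sro. Of these, Npc1b also lost it with length-dependent scaling, Cp7Fa (adjusted p 0.0612), yellow-g (0.0575) and sro (0.0632) with the replicate block, and sro with library totals (0.0529) and without the low-count filter (0.0509). Genetic background and batch cannot be told apart from the alleles here.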

How the results depend on the processing

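The count of 6915 genes called in the Lsp2[A10] pair was 6907 with RLE factors, 7005 with DESeq2, 6551 with a mean count of at least 50, 6115 with length-dependent scaling and 6326 to 6676 with 1 library left out. The replicate block gave 6897 calls, and a fit of the compared groups alone gave 6920 of 10102 genes tested. Deviations of same-numbered replicates from their group means correlated at -0.12, 0.07 and -0.07 between the groups, and those of other pairs at -0.13 to 0.15. With 3 libraries a group this cannot show whether same-numbered samples share a culture or preparation. The difference between alleles was called in 424 genes, in 752 with DESeq2, in 472 with the replicate block and in 197 to 717 with 1 library left out. Of the 204 named genes called, 175 kept direction and call under every alternative run and 29 did not, 6 of them in a fit without a library. With length-dependent scaling the direction turned for Thor (-0.45), Rheb (-0.20), Pdk1 (0.11), mt:CoII (-0.071), Atg2 (0.05), Stat92E (0.005), Cp15 (-0.26), bol (0.13), Hr39 (0.035), cwo (0.26) and Vha13 (-0.01), and 15 others lost their call. That follows from the scaling's construction, which removes what goes with length. The log2 change of Lsp2 in Lsp2[A10], not called in any fit, ran from -2.977 without Thor[2];Lsp2[A10] replicate 1 to 0.812 without Lsp2[A10] replicate 3, with 0.375 when Thor[2];Lsp2[A10] lost replicate 2 and 0.456 when it lost replicate 3. The cause was not tested. Depth limits genes of a few counts, such as Lsp2 and most larval serum and accessory gland genes.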
